A study of Mus musculus with 6 samples.

Results

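The primary cilium is a single microtubule-based projection that most chondrocytes carry, and 36 genes of its transport machinery were followed here. They were taken by name from a fixed list, and where a gene had several probe sets the one of highest mean was used. All 36 had a probe set, among 19932 genes with a symbol. The arrays, of the whole-transcript Affymetrix type, measured chondrocytes, the cells of cartilage. All mice were wild-type, of the ICR strain and untreated. One group was isolated from the nasal septum at embryonic day 17.5 (n = 3), and the other from the rib at postnatal day 1 (n = 3). Site and age differ together, so no value below can be assigned to either. The labels call the 3 samples of a group biological replicates without saying whether each came from 1 animal or from several, so the p-values measure the spread between these samples. The series sets such arrays beside maps of Sox9 binding and of histone marks to study how Sox9 controls chondrocyte genes, and those maps were not analysed here.

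Cilia are built and maintained by intraflagellar transport, in which trains of 2 protein complexes move along the ciliary microtubules. The IFT-B complex travels towards the tip with the kinesin-2 motor, and the IFT-A complex is needed for the return towards the base with the dynein-2 motor. The BBSome, an adaptor of Bardet-Biedl syndrome proteins, carries membrane proteins on these trains, and the transition zone at the ciliary base gates what enters. In growth cartilage the cilium is the place where Hedgehog signals are received and Gli factors are processed. Human mutations in many of these genes cause skeletal ciliopathies with short ribs and short limbs, among them IFT80, IFT172, WDR19, WDR35, IFT140, DYNC2H1, DYNC2LI1, EVC and EVC2.

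The arrays had been brought to one trimmed mean, and across probe sets the correlation was 0.987 to 0.993 within groups and 0.957 to 0.968 between them. These values describe the arrays only, because probe sets are no replicates. Chondrocyte markers were bright in both groups, with Col2a1, the chain of type II collagen, at intensities of 13310 to 13584 in nasal and 15402 to 16495 in rib. Nasal replicate 1 stood apart, with a median intensity of 261 against 209 to 234 and a lower quartile of 140 against 87.3 to 108 on the other arrays. Over all genes the log2 difference had a median of 0.11, on the nasal side, and of 0.025 without that array. It was 0.22 for genes under the median gene intensity of 231 and -0.069 for the rest, and 14 of the 36 cilium genes lay under that level. RNA was measured in bulk, so more cells of a type and more RNA per cell cannot be told apart.

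Of the 36 cilium genes, 7 were higher in nasal and 3 higher in rib past a limma adjusted p of 0.05 over all genes. Over all 19932 genes 13.8% were called higher in nasal and 14.7% higher in rib, 28.5% together. The 10 calls make 27.8% of the cilium genes, near that background. Nasal and rib values did not overlap for 16 of the 36, or 44.4%, against 45.7% of all genes. The median difference of the 36 was 0.10 against 0.11 for all genes. The gap between these medians was -0.015 and ran from -0.057 to 0.068 over the alternatives, so it had no settled sign. It was 0.068 without nasal replicate 1 and 0.039 without rib replicate 2. Their median absolute difference was 0.18, against 0.27 over all genes. The spread was also smaller, with a median SD within groups of 0.11 on the log2 scale against 0.16.

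**Figure D1:**
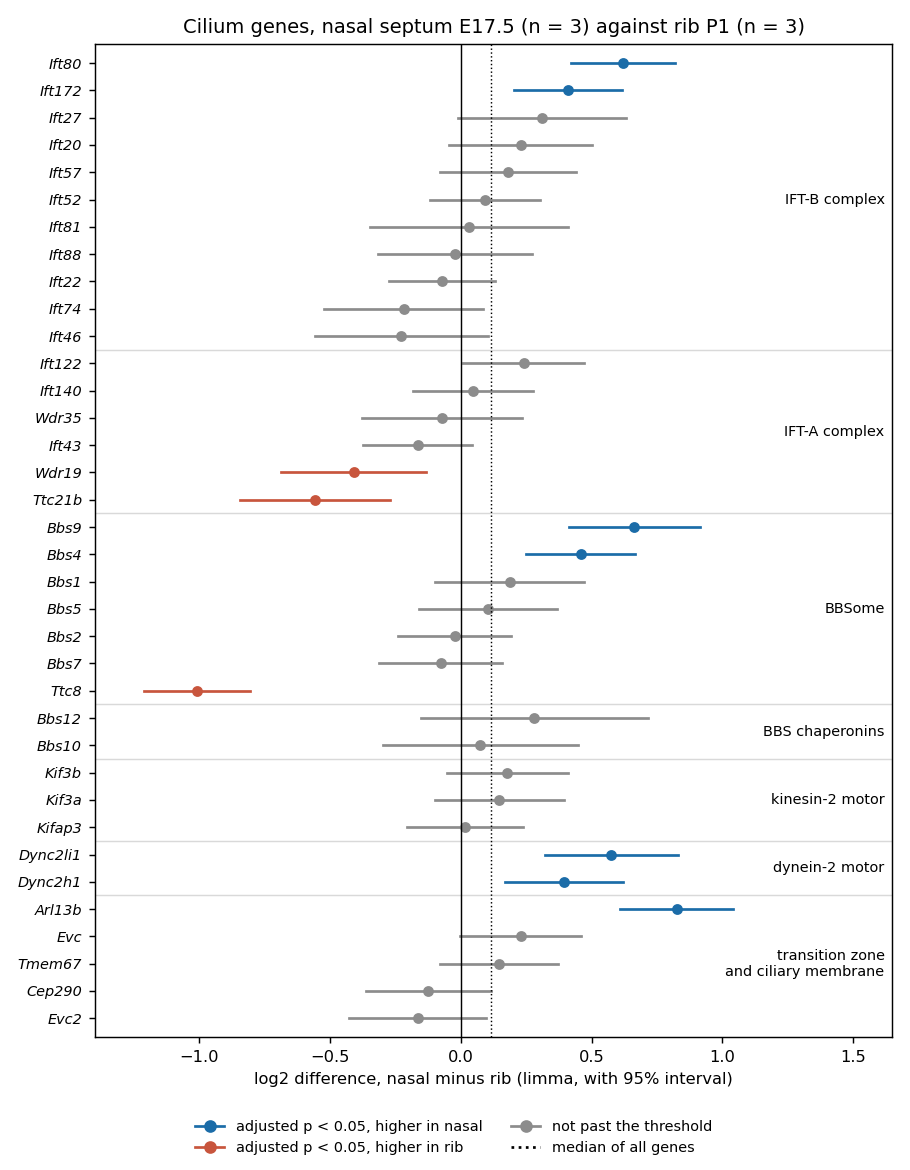
Log2 difference, nasal minus rib, of each of the 36 cilium genes with its 95% interval from limma (3 nasal and 3 rib samples), ordered within 7 groups of subunits. Coloured points passed an adjusted p of 0.05, 7 towards nasal and 3 towards rib. Ttc8 at -1.01 and Arl13b at 0.82 lie farthest from the dotted median of all genes at 0.11.

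In the IFT-B complex, 2 of 11 genes passed as higher in nasal, and 0 as higher in rib. Ift80, an outer subunit of the complex, read 345, 359 and 357 on the nasal arrays and 240, 226 and 225 on the rib arrays. The groups lay far apart compared with their own spread, and the log2 difference was 0.62 (SE 0.08, limma adjusted p = 0.00218), a 1.54-fold higher level in nasal. Ift172, the largest subunit, read 360, 374 and 361 in nasal against 258, 282 and 285 on the rib arrays (log2 0.41, SE 0.09, limma adjusted p = 0.0132). All 3 nasal values of Ift172 stood above all 3 rib values. The call of Ift172 ended without nasal replicate 2 (adjusted p = 0.0545) and without rib replicate 1 (adjusted p = 0.0509). It also ended after centring each array on its median (adjusted p = 0.0664) and with a replicate block (adjusted p = 0.0515).

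The other 9 IFT-B genes did not pass. Ift88, the subunit whose gene is mutated in the Oak Ridge polycystic kidney mouse line, read 311, 387 and 417 in nasal and 366, 375 and 385 in rib. Its rib values lay inside the nasal range, with a difference of -0.02 (95% interval -0.32 to 0.27). Ift74 and Ift81, whose products together bind the cargo tubulin, differed by -0.22 (SE 0.13) and 0.03 (SE 0.16). Ift46, which links the complex to outer dynein arm cargo in algae, had -0.23 (SE 0.14, adjusted p = 0.258), and nasal replicate 1 was its lowest array at 1145 against 1442 to 1764 on the others. Ift52, a core subunit, differed by 0.09 (SE 0.09) and Ift57, a peripheral subunit, by 0.18 (SE 0.11). Ift20, a subunit that also sits at the Golgi, had intensities of 4627 to 5852 in nasal and 4134 to 4668 in rib (0.23, SE 0.12, adjusted p = 0.183). It passed when the variance was fitted with trend and robust (adjusted p = 0.0377). Of the small GTPases of the complex, Ift22 differed by -0.07 (SE 0.09), and Ift27, which helps the BBSome leave the cilium, by 0.31 (SE 0.14, adjusted p = 0.133). Ift27 read 227 in nasal replicate 1 and 168 and 167 in the other nasal samples, against 148 to 150 in rib.

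The IFT-A complex had no gene higher in nasal and 2 of 6 higher in rib. Ttc21b, a subunit of the complex, read 134, 112 and 105 in nasal against 159, 172 and 183 on the rib arrays (log2 -0.56, SE 0.12, limma adjusted p = 0.0140). Wdr19, a core subunit, read 173, 196 and 210 in nasal against 285, 244 and 240 in rib (-0.41, SE 0.12, limma adjusted p = 0.0385). In both genes every rib value stood above every nasal value. The call of Wdr19 lay close to the threshold, and neither call held in all alternatives. That of Ttc21b ended without nasal replicate 2 (adjusted p = 0.0545), rib replicate 2 (0.0527) or rib replicate 3 (0.0526), and with a replicate block (0.0526). That of Wdr19 ended without any 1 array other than nasal replicate 3 (adjusted p = 0.0654 to 0.121) and with a replicate block (0.103). It also ended when arrays were quantile normalized (adjusted p = 0.0618) or scaled by cyclic loess (adjusted p = 0.0512).

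The other IFT-A genes did not pass. Ift122, a core subunit, leaned to nasal (0.24, SE 0.10, adjusted p = 0.113), with 188 to 221 in nasal and 170 to 183 in rib. Ift43, a small subunit, leaned to rib (-0.17, SE 0.09), with 282 to 313 against 325 to 345. Ift140, a core subunit (0.05, SE 0.10), and Wdr35, a peripheral one (-0.07, SE 0.13), had overlapping groups, and both changed sign after quantile normalization (-0.00089 and 0.036).

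The BBSome held the largest difference of all 36 genes. Ttc8, a subunit also known as Bbs8, read 271, 269 and 251 on the nasal arrays and 539, 511 and 541 on the rib arrays. All 3 rib arrays stood well above all 3 nasal arrays. The log2 difference was -1.01 (95% interval -1.21 to -0.81, SE 0.09, limma adjusted p = 0.00044), a 2.01-fold higher level in rib. It was the only one of the 36 to reach 1 on the log2 scale, a size that 3.82% of all genes had. A second probe set of Ttc8 read 279, 258 and 235 in nasal and 470, 399 and 457 in rib, a smaller difference of -0.78 in the same direction.

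On the nasal side of the same complex stood Bbs9 and Bbs4. Bbs9, a core subunit, read 872, 885 and 820 in nasal against 601, 488 and 544 on the rib arrays (log2 0.66, SE 0.11, limma adjusted p = 0.00425), a 1.58-fold higher level in nasal. Its 2 probe sets held identical values and count once. Bbs4, a subunit that binds the centriolar satellite protein Pcm1, read 145, 151 and 151 in nasal against 109, 102 and 115 in rib (0.46, SE 0.09, limma adjusted p = 0.00892). Its groups did not overlap, but its size depended on the scaling, with 0.22 for quantile-normalized arrays (adjusted p = 0.257) and 0.24 for cyclic loess (adjusted p = 0.205), and it did not pass with trend and robust (adjusted p = 0.0513).

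**Figure D2:**
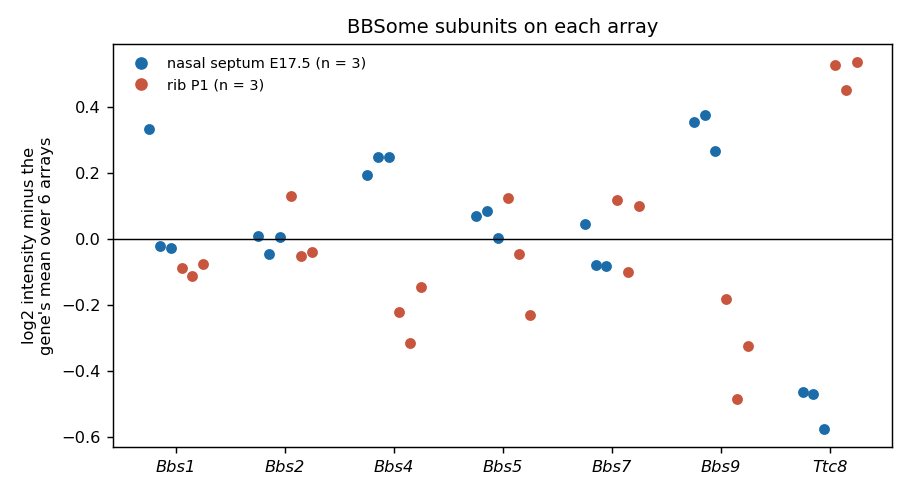
Log2 intensity of the 7 BBSome subunits on each of the 6 arrays, relative to the mean of that gene over the arrays (blue, nasal septum, n = 3; orange, rib, n = 3). Ttc8 is high on the 3 rib arrays, Bbs9 and Bbs4 are high on the 3 nasal arrays, and the groups mix for Bbs2, Bbs5 and Bbs7.

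The other 4 BBSome genes did not pass. Bbs1, the subunit that binds the GTPase Arl6, differed by 0.19 (SE 0.12), with nasal replicate 1 at 420 and the other nasal arrays at 328 and 326 against 308 to 316 in rib, so its groups did not overlap. Bbs2 (-0.02, SE 0.09) and Bbs7 (-0.08, SE 0.10), core subunits that bind each other, and Bbs5 (0.10, SE 0.11), a lipid-binding subunit, had overlapping groups. Set against the mean of the other 6 subunits on the same array, the log2 level of Ttc8 was -0.20, -0.13 and -0.21 on the nasal arrays and 0.98, 1.07 and 1.09 on the rib arrays. That ratio differed by -1.23 between the groups, and a single factor applied to a whole array would not alter it. It describes unequal change within the complex, since Ttc8 was singled out after its value was seen.

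Bbs10 and Bbs12, which encode chaperonin-like proteins that help to assemble the BBSome, did not pass (0.07, SE 0.16, and 0.28, SE 0.18). Bbs12 spread widely in nasal, at 160, 127 and 94 against 101 to 103 in rib, and passed without nasal replicate 3 (0.48, adjusted p = 0.0436). All 3 further BBS genes passed, 1 towards nasal and 2 towards rib, beside 28.5% of all genes. The rib count ran from 1 to 2 over the alternatives. Mkks, the third chaperonin-like gene, was higher in rib (330, 380 and 353 against 228, 240 and 223, log2 -0.62, SE 0.09, limma adjusted p = 0.00337). Arl6, the GTPase that recruits the BBSome to membranes, was also higher in rib (-0.54, SE 0.15, adjusted p = 0.0334), but lost its call without nasal replicate 3 or any 1 rib array. Lztfl1, which limits BBSome entry into cilia, was higher in nasal (1502, 1529 and 1761 against 1114, 1110 and 1084, log2 0.53, SE 0.10, limma adjusted p = 0.00713).

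Both dynein-2 genes among the 36 were higher in nasal. Dync2li1, the light intermediate chain, read 260, 276 and 309 in nasal against 193, 201 and 173 on the rib arrays (log2 0.57, SE 0.11, limma adjusted p = 0.00794), a 1.49-fold higher level. Dync2h1, the heavy chain that holds the motor domain, read 400, 454 and 395 in nasal against 313, 328 and 307 in rib (0.39, SE 0.09, limma adjusted p = 0.0208). For both genes the lowest nasal array stood above the highest rib array. Dync2h1 lost its call after median centring (adjusted p = 0.0997), with a replicate block (0.0560), without nasal replicate 2 (0.0747) and without rib replicate 1 (0.0692), 2 (0.0604) or 3 (0.0701).

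Other subunits that dynein-2 uses did not all follow. Tctex1d2, a light chain, passed towards nasal (0.40, SE 0.11, adjusted p = 0.0370) but lost the call in 8 of 14 alternatives, among them the fits without any 1 array other than nasal replicate 1. The intermediate chain genes Wdr34 (-0.25, SE 0.11, adjusted p = 0.125) and Wdr60 (0.22, SE 0.09, adjusted p = 0.129) did not pass, nor did the light chain genes Dynll1 (0.04, SE 0.12) and Dynlrb1 (0.18, SE 0.11).

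None of the 3 kinesin-2 genes passed the limma threshold. Kif3a, a motor subunit, read 197, 192 and 175 in nasal against 161, 161 and 188 in rib (0.15, 95% interval -0.10 to 0.39), and its sign turned after quantile normalization (-0.0070). Kif3b, the partner motor subunit, stood at 311 to 364 in nasal and 281 to 301 in rib (0.18, SE 0.10, adjusted p = 0.215), and it passed with quantile-normalized arrays (0.22, adjusted p = 0.0462) and with cyclic loess (0.23, adjusted p = 0.0373). Kifap3, the accessory subunit that holds the motor to its cargo, was level at 287 to 322 and 284 to 315 (0.01, 95% interval -0.21 to 0.24).

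Among genes of the ciliary membrane and transition zone, 1 of 5 passed. Arl13b, a GTPase of the ciliary membrane that activates Arl3, read 716, 780 and 823 in nasal and 436, 447 and 424 in rib. The groups were far apart, with a log2 difference of 0.82 (95% interval 0.61 to 1.04, SE 0.09, limma adjusted p = 0.00105), a 1.77-fold higher level in nasal. Evc and Evc2 encode partner proteins that pass Hedgehog signals on at the ciliary base, and they are neighbours on mouse chromosome 5 that are read in opposite directions. Evc leaned to nasal (291 to 310 against 237 to 281, 0.23, SE 0.10, adjusted p = 0.126) and Evc2 to rib (225 to 277 against 261 to 298, -0.17, SE 0.11, adjusted p = 0.297). Neither passed. Cep290, which ties the ciliary membrane to the microtubules, was dim at 93 to 108 in nasal and 102 to 115 in rib (-0.12, SE 0.10). Quantile normalization gave -0.38 (adjusted p = 0.0366) and cyclic loess -0.37 (adjusted p = 0.0421), both past the threshold towards rib. Tmem67, a membrane protein of the transition zone, had 510 to 587 against 470 to 512 (0.15, SE 0.10, adjusted p = 0.285) and passed after cyclic loess (0.27, adjusted p = 0.0465).

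**Figure D3:**
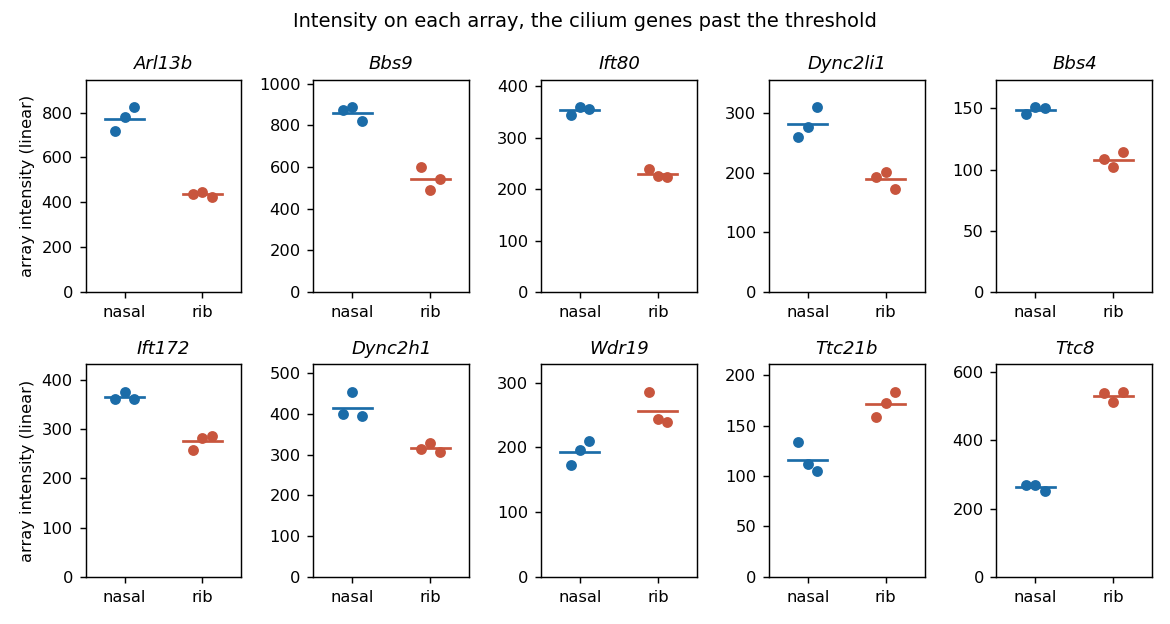
Linear array intensity of the 10 cilium genes past an adjusted p of 0.05, with 1 point per array and a line at the geometric mean of each group (n = 3), each axis starting at 0. In all 10 genes the nasal and the rib points do not overlap, with 7 genes higher in nasal and Wdr19, Ttc21b and Ttc8 higher in rib. The genes were selected on these same values, so this is no separate evidence, and 45.7% of all genes did not overlap.

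Of the 10 calls, 5 held in each of 14 alternatives, namely Ift80, Bbs9, Ttc8, Dync2li1 and Arl13b. Their highest adjusted p over the alternatives was 0.0193, 0.0229, 0.00725, 0.0380 and 0.0108 in that order. The other 5 kept their direction and lost the call in 3 to 8 of the 14.

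Promoters were read because ciliary genes are known targets of RFX transcription factors, which bind a palindrome called the X-box. Of the 36 genes, 31 had a promoter in the RefSeq table (build GRCm38.p6), covering 250 bases before to 50 bases after the gene start. The search took the arm GTNNCC, 1 to 3 bases of any kind and the mirrored arm GGNNAC, which reads the same on both strands. A match was found for 6 of the 31 genes (19.4%), against 686 of 15491 measured genes with a promoter (4.43%). With the stricter arms GTTNCC and GGNAAC, 2 of the 31 (6.45%) and 0.897% of measured genes had a match. Among cilium genes outside the 36, a loose match was found for 9 of 16 other transition zone genes, 5 of 19 basal body and ciliogenesis genes, 1 of 3 other BBS genes, 2 of 15 other IFT and motor genes and 1 of 13 ciliary cargo and lipid transport genes. A match describes letters and is not a bound site.

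**Figure D4:**
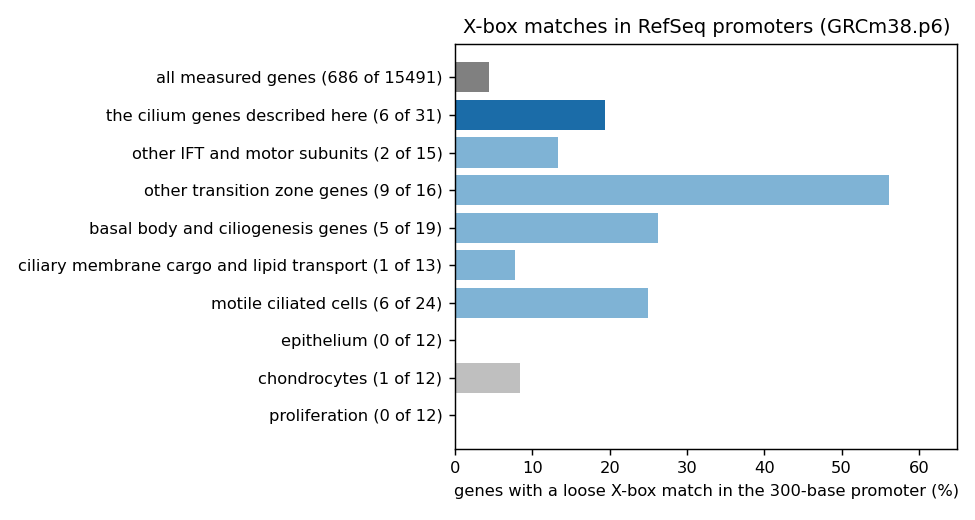
Share of genes, in percent, with a loose X-box match in the 300 bases of their RefSeq promoter, for all measured genes, the cilium genes described here and 8 other gene lists, with counts in brackets. The cilium genes stand at 19.4% and all measured genes at 4.43%.

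The 6 genes with a match were Ift22, Ift57, Wdr19, Bbs1, Bbs4 and Bbs7. Of the 8 called genes with a promoter, 2 held a match, Wdr19 (higher in rib) and Bbs4 (higher in nasal), against 4 of the 23 genes that were not called. The promoters of Ttc8, Arl13b, Bbs9 and Ttc21b, which had the largest differences among genes with a promoter, held none. Printed below are the 150 bases before the gene start of these 4 genes and of Wdr19 and Ift57, 5′ to 3′ on the strand of the gene, from RefSeq in build GRCm38.p6. Capitals mark the X-box matches, which are present in Wdr19 and, as a pair, in Ift57.
Ttc8, chr12:98920424-98920573, plus strand: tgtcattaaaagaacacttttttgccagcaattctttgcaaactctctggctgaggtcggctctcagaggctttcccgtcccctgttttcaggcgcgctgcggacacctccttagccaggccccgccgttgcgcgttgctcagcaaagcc
Arl13b, chr16:62847041-62847190, minus strand: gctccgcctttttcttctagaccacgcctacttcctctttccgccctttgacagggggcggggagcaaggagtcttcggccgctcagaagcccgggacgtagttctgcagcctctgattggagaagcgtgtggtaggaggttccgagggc
Bbs9, chr9:22475565-22475714, plus strand: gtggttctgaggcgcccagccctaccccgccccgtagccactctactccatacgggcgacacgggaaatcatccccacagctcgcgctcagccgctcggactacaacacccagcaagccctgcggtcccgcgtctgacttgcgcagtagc
Ttc21b, chr2:66256618-66256767, minus strand: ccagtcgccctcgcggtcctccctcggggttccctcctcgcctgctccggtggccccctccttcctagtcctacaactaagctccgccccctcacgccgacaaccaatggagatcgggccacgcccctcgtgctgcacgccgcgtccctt
Wdr19, chr5:65199546-65199695, plus strand: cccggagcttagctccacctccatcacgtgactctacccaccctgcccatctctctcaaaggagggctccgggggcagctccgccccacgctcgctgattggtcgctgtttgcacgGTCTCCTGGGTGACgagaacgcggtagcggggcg
Ift57, chr16:49699144-49699293, plus strand: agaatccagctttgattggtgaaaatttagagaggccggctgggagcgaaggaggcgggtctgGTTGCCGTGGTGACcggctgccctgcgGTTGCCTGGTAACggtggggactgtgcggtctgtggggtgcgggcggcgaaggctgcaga

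The first bases of the matches lay between base -121 and base 24, counted from the gene start. Ift57 held GTTGCCGTGGTGAC at base -87 and GTTGCCTGGTAAC, which also fits the stricter arms, at base -60. Bbs7 on chromosome 3 held the other strict match, GTTGCCTTGGAAAC, at base -121. Ift22 on chromosome 5 held GTTTCCTGGGCTAC at base -63 and GTCGCCGTGGAAAC at base -33. In Bbs1 on chromosome 19 the match GTTGCCAAGGCGAC began at base 2, and in Bbs4 on chromosome 9 the match GTCGCCCGGGAAAC began at base 24, both inside the transcribed part. Among the RFX genes themselves, 1 of 6 passed. Rfx3, a ciliogenic member, read 385, 355 and 382 in nasal against 320, 292 and 264 in rib (0.36, SE 0.10, limma adjusted p = 0.0387), and it lost the call in 8 of 14 alternatives, among them the fits without any 1 array other than rib replicate 1.

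Beyond the 36, 5 lists of other cilium genes were read, with 76 measured genes. Of these, 13 passed towards nasal and 7 towards rib, 26.3% in all, close to the 28.5% of all genes, and their median difference was 0.070. The counts ran from 5 to 15 and from 4 to 11 over the alternatives, with 5 and 4 without rib replicate 2. Other transition zone genes had 2 of 19 higher in nasal, led by Tmem231 (479, 434 and 394 against 286, 247 and 257, log2 0.72, SE 0.11, limma adjusted p = 0.00358), and 0 in rib. Basal body and ciliogenesis genes had 5 of 22 higher in nasal and 2 in rib. On the nasal side were Ehd1, which shapes the early ciliary vesicle (0.62, SE 0.08), Pcm1, the satellite scaffold (0.53, SE 0.09), and Rab11a, a GTPase of vesicle transport to the cilium (0.53, SE 0.08). Other IFT and motor subunits had 2 of 16 higher in nasal and 0 in rib. Ciliary cargo and lipid transport genes were divided, with 3 of 16 on each side. Pde6d, which carries lipid-anchored proteins to the cilium, was higher in rib (1624, 1594 and 1422 against 812, 957 and 953, log2 -0.77, SE 0.11, limma adjusted p = 0.00258), as was Pkd1, encoding polycystin-1 (-0.55, SE 0.08).

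Of the 20 calls in these lists, 8 held in all alternatives, those of Lztfl1, Mkks, Tmem231, Ehd1, Pcm1, Rab11a, Pde6d and Pkd1. The other 12, among them Rabl2, Iqcb1, Rab8a, Ccp110 and Arl3, lost the call in 2 to 8 of the 14.

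Cilia are resorbed as cells divide, and 8 genes of that process were read as well. Of these, 3 passed towards nasal and 1 towards rib, 50% against 28.5% of all genes. Their median difference was 0.067, against 0.11 over all genes. Nedd9, a scaffold of ciliary disassembly, was higher in nasal (1899, 1845 and 1893 against 1075, 931 and 928, log2 0.95, SE 0.10, limma adjusted p = 0.000757). The microtubule depolymerase gene Kif2a (0.87, SE 0.08) and Kif24, a kinesin that restrains ciliation (0.56, SE 0.10), were also higher in nasal. Plk1, a mitotic kinase, was higher in rib (575, 617 and 698 against 348, 351 and 364, -0.83, SE 0.10, limma adjusted p = 0.00152). Hdac6 (0.20, SE 0.10), Aurka (-0.20, SE 0.10), Nek2 (-0.23, SE 0.10) and Tchp (-0.07, SE 0.12) did not pass. Of 13 proliferation genes, 5 passed towards nasal and 1 towards rib, with summed intensities of 9061 to 9910 in nasal and 8094 to 8540 in rib. The calls make 46.2%, against 28.5% of all genes, and ran from 4 to 7 and from 0 to 1 over the alternatives. Of 9 Hedgehog genes, 1 passed towards nasal and 2 towards rib, 33.3% in all, near the 28.5% of all genes. The nasal count ran from 0 to 4 over the alternatives and the rib count from 1 to 3. A positive difference was seen in 5 of them and a negative one in 4, with a median of 0.24. Ptch1 was higher in nasal (0.51, SE 0.12, limma adjusted p = 0.0195) and Ihh higher in rib (-0.45, SE 0.11, limma adjusted p = 0.0235), and each lost its call in 5 of the 14. Gli3, the factor processed to a repressor at the cilium, was higher in rib (-0.73, SE 0.10, limma adjusted p = 0.00269) and kept its call in all 14. Gli1 (0.38, SE 0.13), Gli2 (0.24, SE 0.09) and Smo, the transducer that enters the cilium (-0.09, SE 0.09), did not pass.

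The nasal cavity is lined by an epithelium with motile cilia that use the same transport genes, so markers of such cells were read beside these results. Of 28 motile cilium markers, 4 passed towards nasal and 0 towards rib. The 4 make 14.3%, near the 13.8% of all genes called towards nasal and below the 28.5% called in all. Their summed intensity ran from 3368 to 4310 in nasal and from 2843 to 3424 in rib, so the groups overlapped. Of the 28, 26 had a positive difference and 2 a negative one, and 27 lay under the median gene intensity. The list median stood above that of all genes by 0.12, and by 0.0085 to 0.18 over the alternatives. The median difference of the list was 0.24, beside the 0.22 of dim genes. That median was 0.0035 after quantile normalization, 0.018 after cyclic loess and 0.13 without nasal replicate 1, and the nasal calls ran from 1 to 4 over the alternatives, with 2 in the fits without any 1 array other than nasal replicate 3. Foxj1, the master regulator of motile cilia, read 127 to 174 in nasal and 118 to 137 in rib (0.14, SE 0.14, limma adjusted p = 0.473). Rsph4a (0.93, SE 0.15) and Ccdc39 (0.66, SE 0.09), parts of the motile axoneme, kept their calls in the alternatives that included them. Both were dim, at 91 to 122 and 100 to 112 in nasal against 49 to 65 and 66 to 71 in rib, and the filter on dim genes removed both. That filter left 14 of the 28 markers, with 1 called towards nasal. The part of motile ciliated cells in the nasal levels of the 36 genes was not tested.

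Markers of other cells are given beside the 28.5% of all genes that were called. Of 20 epithelial markers, 2 passed towards nasal and 1 towards rib, and their summed intensities of 3436 to 4883 and 3305 to 3791 overlapped. A positive difference was seen in 15 and a negative one in 5, with a median of 0.25. That median stood above that of all genes by 0.14, and by 0.081 to 0.16 over the alternatives. Glial and neuronal markers had 6 of 11 higher in nasal and 0 in rib, with sums of 6528 to 7041 against 4102 to 4175, which did not overlap. Of 14 skeletal muscle markers, 0 passed towards nasal and 3 towards rib, of 14 bone, fibroblast and perichondrium markers 2 and 5, of 13 blood, macrophage and endothelial markers 3 and 1, and of 17 chondrocyte markers 0 and 2. Over the alternatives, the calls towards nasal and rib ran from 0 to 6 and 1 to 2 for epithelium, 3 to 7 and 0 to 1 for glia and neurons, 0 to 1 and 1 to 4 for muscle, and 0 to 4 and 1 to 6 for chondrocytes. For bone, fibroblast and perichondrium they were 2 in each alternative and 2 to 6, and for blood, macrophage and endothelium 2 to 4 and 1 in each. In the counts printed first, the shares called were 15% for epithelium, 21.4% for muscle and 11.8% for chondrocytes, below that of all genes. They were 54.5% for glia and neurons, 50% for bone, fibroblast and perichondrium and 30.8% for blood, macrophage and endothelium, above it. No marker was at 0 on these arrays, which carry no detection calls here. The part of these cells in the cilium results was not tested.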

How the data were processed

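RNA was labelled from 300 ng of total RNA per sample, per the labels' protocols. The authors deposited linear intensity values for 28451 probe sets on 6 arrays, and the submitters' processing notes name RMA without a version. What else was done before deposit stands in none of the sources used here. The mean of each array after trimming 2% of probe sets at each end was 500. Values were turned to log2 with no pseudocount. Probe sets were named through RefSeq accessions (GRCm38.p6): 24935 matched 1 symbol and 3516 none. Nasal minus rib was fitted with limma 3.58.1 in R 4.3.3 (lmFit, eBayes, no covariate) on all 19932 genes, with Benjamini-Hochberg adjustment and a threshold of 0.05. SE is from limma. The pipeline was tested on simulated data. An exact permutation test of 3 against 3 samples cannot go below 0.1, so none was used. The number of arrays limits the precision.

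The 36 genes and the 16 other lists (240 entries, 229 matched) were chosen with earlier results of these data known. Every one of the 36 is named. From the other lists the rule takes up to 4 called genes per direction by size of difference, or the 2 of highest mean where none was called, and the text shows those on which a result turns. Promoters were to be shown for called genes with a difference of at least 0.5 and for genes with an X-box, at most 8 by size of difference. Of Bbs1 and Bbs4 only the match is shown, because it lies after the gene start. Alternatives were quantile normalization, median centring, cyclic loess, a filter on dim genes (25th percentile), the mean of a gene's probe sets, an offset of 50 before log2, trend and robust, a replicate block, and leaving out each array.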

Additional observations from a re-analysis of the deposited data

How the results depend on the processing

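The count of cilium genes higher in nasal ran from 5 to 8 over the 14 alternatives and that of genes higher in rib from 1 to 3. The same-numbered nasal and rib samples did not deviate together (correlations of -0.018, 0.22 and -0.28 across genes), not every sample correlated best with its own number, and the numbers are not known to pair samples. With the replicate block, 5 cilium genes were higher in nasal, 1 in rib, and 3903 genes were called in all. Leaving out 1 array gave 3466 (without rib replicate 2) to 5764 genes called, 1 to 3 cilium genes higher in rib and a median difference of 0.088 to 0.14. That median was 0.037 after quantile normalization, 0.026 after median centring and 0.057 after cyclic loess, while the median of all genes moved from 0.11 to -0.0051, 0.041 and 0.0044. The filter on dim genes removed 1 of the 36.

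No called cilium gene changed sign. A change of sign was seen in 9 genes, none of them called in any of those fits, with main differences up to 0.15 in size. After quantile normalization and cyclic loess, Ift22 was 0.018 and 0.051, Ift81 -0.12 and -0.079, Ift88 0.021 and 0.067, Wdr35 0.036 and 0.054, Bbs2 0.043 and 0.060, and Bbs10 -0.054 and -0.053. After quantile normalization alone, Ift140 was -0.00089 and Kif3a -0.0070. After median centring, Ift81 was -0.041, Ift140 -0.027 and Kifap3 -0.059. Over the fits without 1 array, Ift81 ran from -0.12 to 0.14, Ift88 from -0.11 to 0.0996, Ift140 from -0.018 to 0.090, Wdr35 from -0.19 to 0.012, Bbs2 from -0.056 to 0.035, Bbs10 from -0.081 to 0.22 and Kifap3 from -0.036 to 0.056. The cause was not tested. Of these genes, Ift81, Bbs10 and Kif3a lay under the median gene intensity, and Ift22, Ift88, Ift140, Wdr35, Bbs2 and Kifap3 did not. Under that level lay 14 of the 36, and no background values were used here.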
